A study of Mus musculus with 6 samples.

Results

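The cytochrome P450 genes of mouse liver were followed in 3 Lkb1KOlivad livers and 3 control livers. The members were all genes whose array annotation gave a single symbol of the form Cyp followed by a digit, except *Cyp51*, *Cyp7a1*, *Cyp7b1*, *Cyp8b1* and *Cyp27a1*, the enzymes of sterol and bile acid synthesis. This left 82 of the 19938 genes measured, each read by 1 probe set. The mutant mice (KO) carried floxed *Lkb1* alleles on both chromosomes and TTR-CreTam, a Cre recombinase that tamoxifen switches on, driven by the transthyretin promoter and so confined to hepatocytes within the liver. The controls (WT) were littermates with the same floxed alleles and no Cre, and both groups received tamoxifen as adults. All 6 mice were labelled female, and each gave 1 array. The livers came from fasted mice according to the methods. The mice are called by their labels: B253, B304 and B305 in the KO group, and B256, B267 and B302 in the WT group.

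P450 enzymes are heme proteins that insert an oxygen atom into their substrate. Most sit in the endoplasmic reticulum and take electrons from NADPH through P450 oxidoreductase. In liver, the Cyp1, Cyp2 and Cyp3 families clear drugs, toxicants and steroids, the Cyp4 family oxidizes the far end of fatty acids, and the smaller families act on steroid hormones, retinoic acid, vitamin D and oxysterols. Their transcription responds to nuclear receptors, of which CAR and PXR act on Cyp2b, Cyp2c and Cyp3a genes and PPARα on Cyp4a genes, and to the aryl hydrocarbon receptor (AhR), which acts on Cyp1a genes. Many of them also differ between male and female mouse liver and between the central and portal ends of the lobule.

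*Stk11*, the gene that encodes Lkb1, read 6.52, 6.42 and 6.48 in KO livers against 8.24, 8.13 and 7.96 in WT livers, on the log2 signal scale used throughout. The groups did not overlap, and *Stk11* was the only gene of the array with an adjusted p under 0.05 (limma with Benjamini-Hochberg adjustment, adjusted p = 0.007), or 0.00502% of all genes tested. Of the hepatocyte marker list, 12 of 14 genes were measured, at mean signals of 9.74 to 12.84, and none had an unadjusted p under 0.05. Array medians ran between 5.03 and 5.08. Whole liver was arrayed, so fewer cells of a type and less RNA per cell cannot be told apart.

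Promoters are shown for 5 members whose expression is compared further on. They were chosen by how alike the signals of close relatives were. Whether promoter likeness bears on those signals was not tested. RefSeq promoter windows (build GRCm38.p6, 250 bases before to 50 after the start) were matched for 61 of the 82 members. The windows of *Cyp2b9* and *Cyp2b13*, a neighbouring pair of genes expressed mainly in female liver, were identical at 298 of 300 bases. They differed by T48C and C104T, counted from the 5′ end of the window, with the base of *Cyp2b9* first. The window of *Cyp2b10*, the phenobarbital-inducible gene of the same cluster, matched that of *Cyp2b9* at 223 of 300 aligned bases (74.3%), and *Cyp2a12* matched *Cyp2a22* at 262 (87.3%). Gaps were allowed in these alignments, which raises the match. *Cyp4f14* and *Cyp4f40*, a far less alike pair of the same subfamily, still matched at 133 bases (44.3%). Capitals mark AGGTCA, the half-site of many nuclear receptors, and TATAAA, the TATA box, each searched on both strands. They are, on chromosome 7, chr7:26173159-26173458 (plus strand) for *Cyp2b9*, chr7:26061245-26061544 (plus strand) for *Cyp2b13*, chr7:25897408-25897707 (plus strand) for *Cyp2b10*, chr7:27028840-27029139 (plus strand) for *Cyp2a12* and chr7:26939337-26939636 (minus strand) for *Cyp2a22*.
Cyp2b9: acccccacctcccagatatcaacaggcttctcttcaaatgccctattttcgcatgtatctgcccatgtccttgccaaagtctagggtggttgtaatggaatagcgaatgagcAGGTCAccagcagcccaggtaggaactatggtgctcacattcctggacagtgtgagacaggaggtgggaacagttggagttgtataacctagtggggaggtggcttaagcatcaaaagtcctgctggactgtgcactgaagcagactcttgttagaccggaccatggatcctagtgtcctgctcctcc
Cyp2b13: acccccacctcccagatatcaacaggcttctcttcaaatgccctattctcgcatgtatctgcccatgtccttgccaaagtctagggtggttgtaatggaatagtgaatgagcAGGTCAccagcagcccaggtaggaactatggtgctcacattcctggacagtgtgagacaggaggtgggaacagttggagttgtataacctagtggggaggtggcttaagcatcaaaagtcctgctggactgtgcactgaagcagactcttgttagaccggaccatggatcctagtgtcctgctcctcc
Cyp2b10: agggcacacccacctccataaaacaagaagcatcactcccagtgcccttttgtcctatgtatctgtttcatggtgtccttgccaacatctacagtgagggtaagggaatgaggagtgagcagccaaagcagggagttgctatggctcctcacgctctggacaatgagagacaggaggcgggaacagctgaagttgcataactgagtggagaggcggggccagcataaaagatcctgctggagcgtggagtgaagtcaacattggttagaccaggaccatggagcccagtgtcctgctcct
Cyp2a12: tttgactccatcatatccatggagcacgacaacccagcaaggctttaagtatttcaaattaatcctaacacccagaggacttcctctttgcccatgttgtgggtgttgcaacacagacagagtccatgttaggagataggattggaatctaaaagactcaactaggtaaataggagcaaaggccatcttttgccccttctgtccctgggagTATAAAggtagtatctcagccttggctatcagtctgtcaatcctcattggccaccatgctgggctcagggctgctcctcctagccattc
Cyp2a22: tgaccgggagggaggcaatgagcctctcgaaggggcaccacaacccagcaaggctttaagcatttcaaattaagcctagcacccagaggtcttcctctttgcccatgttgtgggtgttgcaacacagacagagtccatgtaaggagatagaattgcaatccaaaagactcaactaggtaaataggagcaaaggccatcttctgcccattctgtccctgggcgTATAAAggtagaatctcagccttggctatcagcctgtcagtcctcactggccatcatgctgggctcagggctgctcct

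The AGGTCA of *Cyp2b9* and *Cyp2b13* began 138 bases before the start, and neither motif was found in the *Cyp2b10* window. The TATAAA began 39 bases before the start of *Cyp2a12* and 28 before that of *Cyp2a22*. Over the family, TATAAA was found in 23 of 61 windows (37.7%), against 14.2% of 27025 promoters of the genome. AGGTCA was found in 15 of 61 (24.6%), against 16.0%, and GCGTG, the core of the AhR element, in 15 of 61 (24.6%), against 32.5%. *Cyp1a1*, the textbook AhR target, held GCGTG in its window, and *Cyp1a2* held TATAAA but not GCGTG. A match of letters is not a binding site, and elements farther from the start lie outside these windows.

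The family spanned most of the range of the array. Of the 82 members, 47 had a mean signal above that of the median gene (5.26). The other 35 had mean signals of 3.0 to 5.16, and the genes of the Y chromosome, which female livers lack, had mean signals of 2.65 to 3.23. Signals of different probe sets are not on a common scale of abundance, so these levels describe each probe set and do not rank the enzymes.

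**Figure D1:**
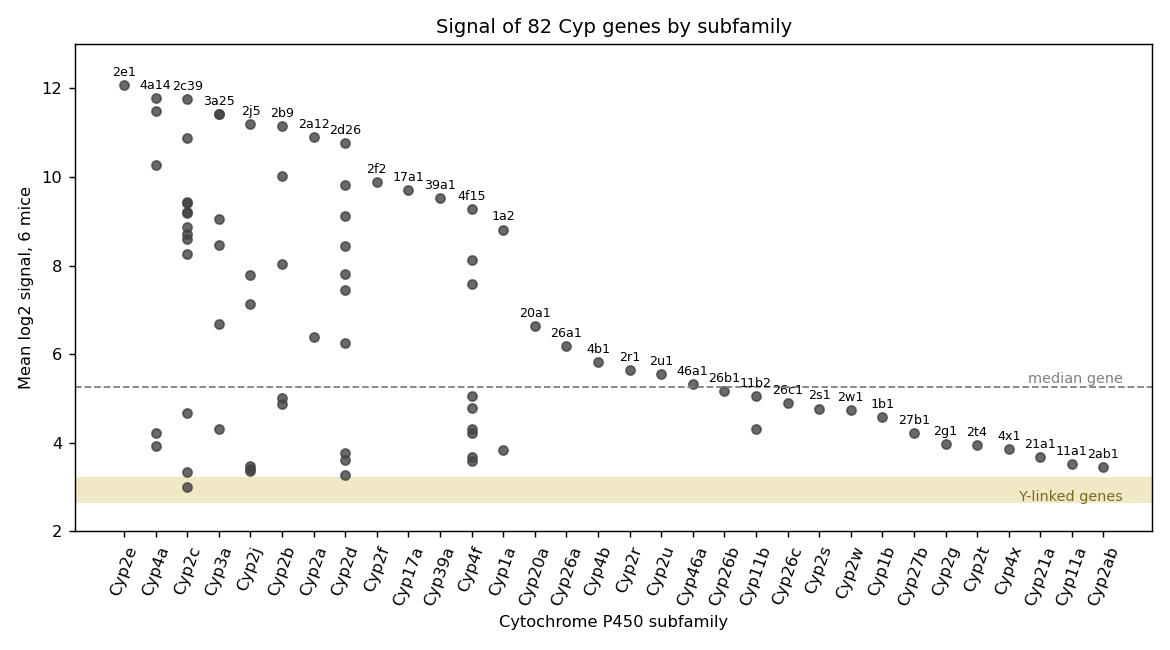
Mean log2 signal over the 6 mice (vertical axis) of each of the 82 Cyp genes, by subfamily (horizontal axis, ordered by the highest member, which is named). The dashed line is the median gene at 5.26 and the band holds 3 Y-linked genes at 2.65 to 3.23; the Cyp2c, Cyp2d, Cyp2j, Cyp4a and Cyp4f subfamilies each have members far above and far below the line.

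The highest signal belonged to *Cyp2e1*, the ethanol- and acetaminophen-oxidizing enzyme of pericentral hepatocytes, at 12.08. The highest members of the large subfamilies were *Cyp4a14* (11.78) and *Cyp4a10* (11.48), fatty acid omega-hydroxylases that PPARα induces, *Cyp2c39* (11.77), *Cyp3a25* (11.42) with *Cyp3a11* (11.41), *Cyp2j5* (11.20), *Cyp2b9* (11.16), *Cyp2a12* (10.91), *Cyp2d26* (10.77) and *Cyp4f15* (9.28). All of these had signals in every mouse that lay well above the median gene.

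Most large subfamilies were divided. In Cyp2c, 10 of 13 members had mean signals of 8.25 or more, while *Cyp2c55*, *Cyp2c65* and *Cyp2c66* stood at 3.34, 3.0 and 4.68. In Cyp4a, *Cyp4a10*, *Cyp4a14* and *Cyp4a31* stood above 10, and *Cyp4a12a* and *Cyp4a12b*, the male-predominant members, at 4.21 and 3.93. In Cyp4f, 3 of 9 members were above the median gene. The steroid-synthesis enzymes of the adrenal cortex, *Cyp11a1* (3.52), *Cyp11b1* (4.31), *Cyp11b2* (5.05) and *Cyp21a1* (3.69), all stood below it. *Cyp17a1*, which makes androgen precursors in gonads and is expressed in female mouse liver, stood at 9.70.

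Loss of *Lkb1* was then compared with control across the family; log2 differences are KO minus WT ± the standard error from limma. No member had an adjusted p under 0.05, and the adjusted p of every member was 1.0 when rounded (limma, over all 19938 genes). At an unadjusted p under 0.05, 5 of 82 members (6.10%) were higher in KO livers, against 1.52% of all genes, and 1 (1.22%) was lower, against 1.51%. Among genes brighter than the median gene, the shares were 5 of 47 members higher (10.6%), against 2.10%, and 1 of 47 lower (2.13%), against 1.80%. All 3 KO values exceeded all 3 WT values for 4 members, against 3.46% of all genes, and lay below them for 1, against 3.70%. The median log2 difference was -0.01 over the members and 0.00 over all genes, with 40 members positive and 42 negative. Without WT B267 the count of higher members was 11, against 2.02% of all genes in that fit. Without WT B302 the count of lower members was 5, against 2.23% of all genes. With 3 livers a group, the half-width of the 95% interval had a median of 0.36 log2 units over the members, and an exact permutation test cannot give a p below 0.10.

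**Figure D2:**
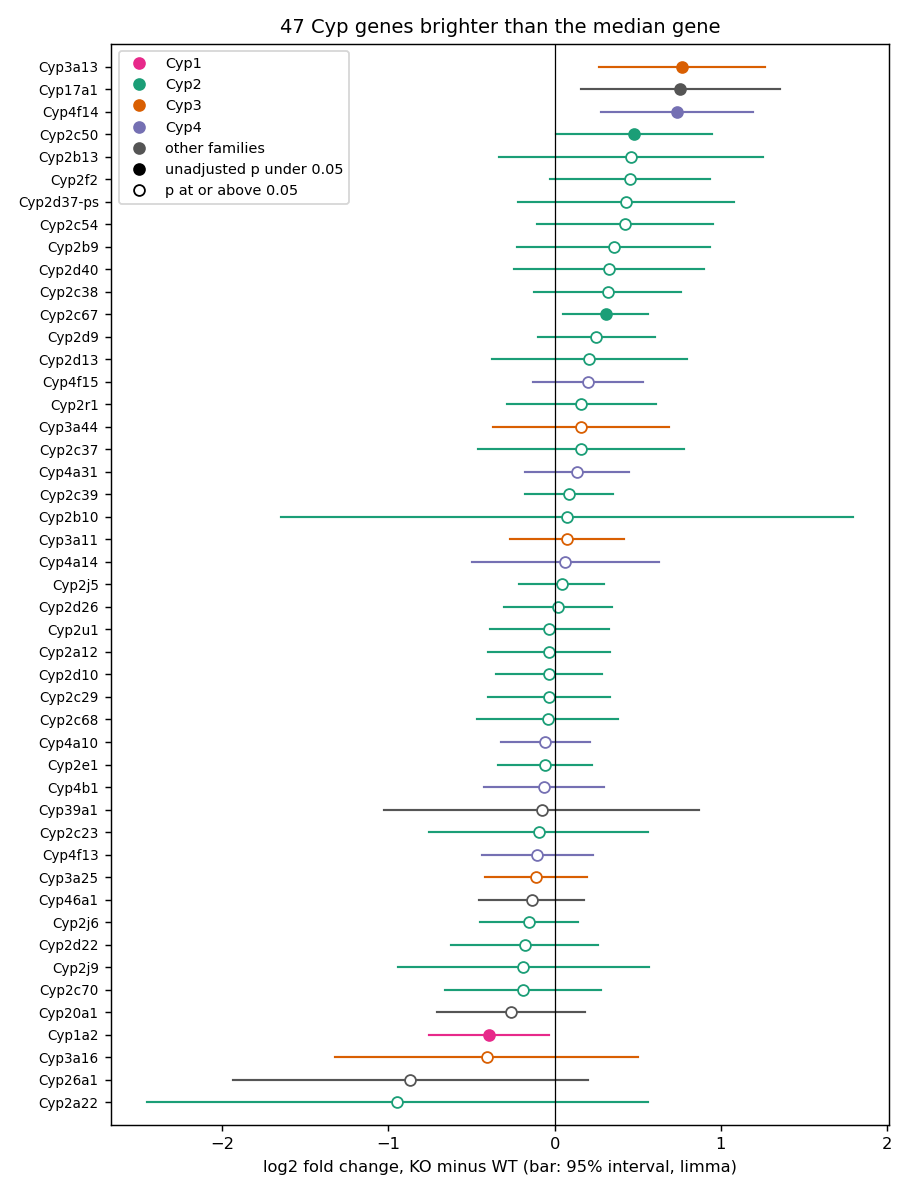
log2 fold change, KO minus WT, with its 95% interval from limma (horizontal axis), for the 47 Cyp genes brighter than the median gene (vertical axis), coloured by family. Filled points are the 6 genes at an unadjusted p under 0.05: *Cyp3a13*, *Cyp17a1*, *Cyp4f14*, *Cyp2c50* and *Cyp2c67* are above 0 and *Cyp1a2* below it, and the widest intervals are those of *Cyp2b10* and *Cyp2a22*.

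*Cyp4f14*, an omega-hydroxylase of leukotriene B4, had the smallest p. It read 8.08, 7.92 and 7.87 in KO livers against 6.73, 7.44 and 7.49 in WT livers. Every KO value lay above every WT value, and the WT spread came mostly from B256. The difference was 1.67-fold (95% interval 1.21 to 2.29, unadjusted p = 0.0057 by limma), with an exact two-sided permutation p of 0.10. The other Cyp4f members above the median gene did not pass: *Cyp4f15* had a log2 difference of 0.20 ± 0.15 and *Cyp4f13* of -0.11 ± 0.15.

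*Cyp3a13*, a member of the PXR-responsive drug- and steroid-oxidizing subfamily, read 8.87, 9.21 and 8.48 in KO livers against 8.31, 8.25 and 7.71 in WT livers. The groups did not overlap, with KO B305 and WT B256 nearest to each other. The difference was 1.70-fold (95% interval 1.2 to 2.4, unadjusted p = 0.0073 by limma). The remaining Cyp3a members above the median gene did not pass: *Cyp3a11* had a log2 difference of 0.07 ± 0.15, *Cyp3a25* of -0.11 ± 0.14, *Cyp3a44* of 0.16 ± 0.23 and *Cyp3a16* of -0.41 ± 0.40. *Cyp3a16* and *Cyp3a44* have promoter windows identical at 284 of 300 aligned bases (94.7%).

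*Cyp17a1* read 9.98, 10.03 and 10.20 in KO livers against 9.76, 8.63 and 9.56 in WT livers. The KO values were tightly grouped and all higher, and WT B267 was the lowest of the 6. The difference was 1.69-fold (95% interval 1.12 to 2.55, unadjusted p = 0.019 by limma). Of 5 adrenal cortex markers, 4 were measured (*Star*, *Mc2r*, *Hsd3b1*, *Nr5a1*), all with mean signals below the median gene (2.59 to 5.15), and their summed linear signal was 85.4 to 94.1 in KO livers and 85.0 to 111 in WT livers.

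*Cyp2c67* and *Cyp2c50* lie in the Cyp2c cluster, whose enzymes oxidize arachidonic acid and drugs. *Cyp2c67* read 8.77, 8.71 and 8.77 in KO livers against 8.34, 8.57 and 8.43 in WT livers, a difference of 1.24-fold (95% interval 1.03 to 1.48, unadjusted p = 0.025 by limma) with no overlap. *Cyp2c50* read 9.41, 9.01 and 8.92 in KO livers against 8.54, 9.05 and 8.32 in WT livers, a difference of 1.39-fold (95% interval 1.01 to 1.93, unadjusted p = 0.047 by limma). Its groups overlapped, since WT B267 exceeded 2 of the KO livers. The neighbouring *Cyp2c54* (log2 difference 0.42 ± 0.23) and *Cyp2c37* (0.16 ± 0.27) had the same order of WT mice as *Cyp2c50*, with B267 highest and B302 lowest. The promoter windows of *Cyp2c37* and *Cyp2c50* were identical at 264 of 300 aligned bases (88.0%). Near-identical relatives can share probes, so signals within this cluster may not be fully separate.

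*Cyp1a2*, which oxidizes caffeine and aromatic amines in pericentral hepatocytes, was the 1 member lower at an unadjusted p under 0.05. It read 8.93, 8.41 and 8.51 in KO livers against 9.02, 9.14 and 8.87 in WT livers. KO B253 lay inside the WT range, so the groups overlapped. The signal was 1.31-fold lower in KO livers (log2 difference -0.39 ± 0.16, unadjusted p = 0.036 by limma). *Cyp1a1* and *Cyp1b1*, the other AhR-responsive members, were below the median gene, with log2 differences of -0.17 ± 0.12 and -0.03 ± 0.18.

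**Figure D3:**
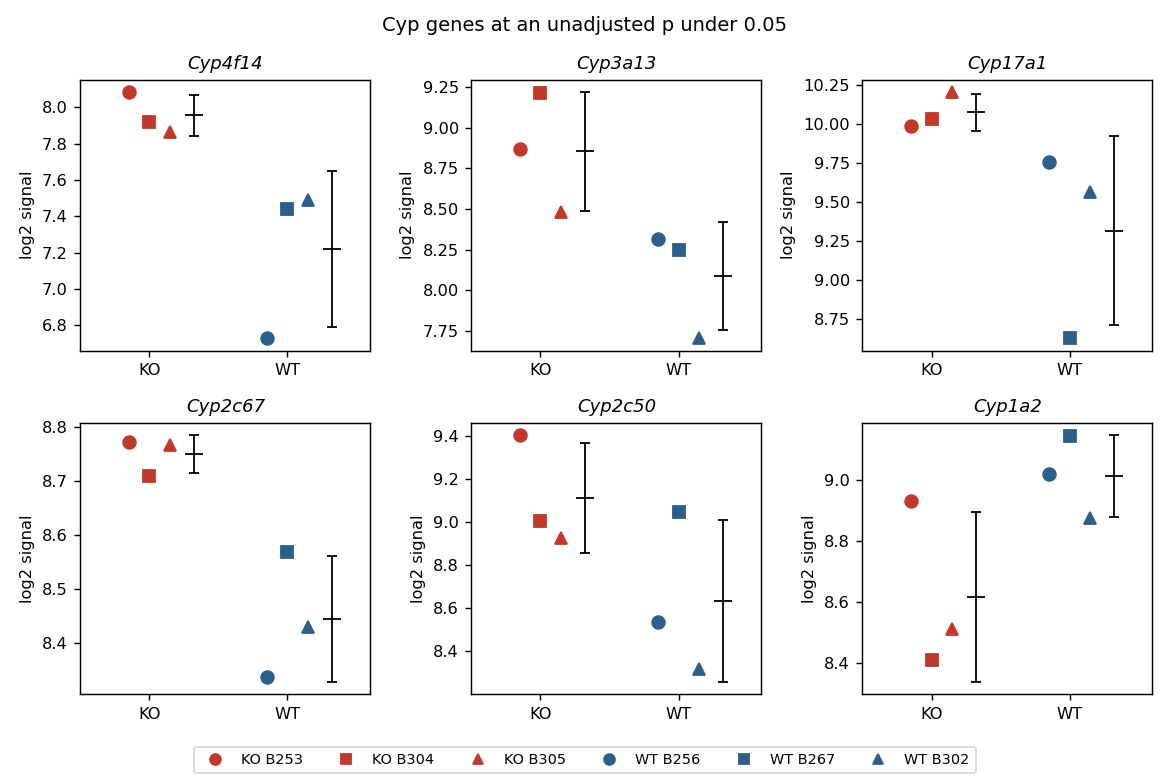
log2 signal (vertical axes, each with its own range) of the 6 Cyp genes at an unadjusted p under 0.05, for 3 KO and 3 WT livers (horizontal axes), with 1 point per mouse and the mean ± SD beside it; shapes name mice and pair none across groups. KO lies wholly above WT for *Cyp4f14*, *Cyp3a13*, *Cyp17a1* and *Cyp2c67*, and the groups overlap for *Cyp2c50* and *Cyp1a2*.

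Among dim members, *Cyp2c55* was the only one whose KO values lay wholly below WT, at 3.10, 3.34 and 3.21 in KO livers against 3.49, 3.45 and 3.48 in WT livers. These signals are close to those of the Y-linked genes. The unadjusted p was 0.051 by limma.

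None of the other large negative differences among members brighter than the median gene passed in the main fit. The largest were those of *Cyp2a22* (log2 difference -0.95 ± 0.66), *Cyp26a1* (-0.87 ± 0.47) and *Cyp3a16* (-0.41 ± 0.40), whose readings are given in other paragraphs. Smaller ones follow here. *Cyp20a1*, an orphan P450, read 6.74, 6.52 and 6.27 in KO livers against 6.98, 6.97 and 6.36 in WT livers (log2 difference -0.26 ± 0.20). *Cyp2c70*, which makes muricholic acids in mouse liver, read 10.44, 10.86 and 11.05 in KO livers against 11.36, 10.78 and 10.79 in WT livers (-0.19 ± 0.21). In *Cyp2c70*, WT B256 was the highest and KO B253 the lowest of the 6 mice. *Cyp2j9* read 6.6, 6.94 and 7.59 in KO livers against 7.56, 7.62 and 6.5 in WT livers (-0.19 ± 0.33). *Cyp2d22* read 10.12, 9.46 and 9.62 in KO livers against 10.2, 9.79 and 9.75 in WT livers (-0.18 ± 0.19). The groups overlapped in all of these genes.

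*Cyp2c29* and *Cyp2d9* also did not pass. *Cyp2c29*, a CAR-responsive epoxygenase, read 9.15, 9.2 and 9.18 in KO livers against 9.26, 9.5 and 8.88 in WT livers (log2 difference -0.04 ± 0.16), with KO inside the WT range. *Cyp2d9*, a steroid hydroxylase more expressed in male liver, read 6.43, 6.2 and 6.48 in KO livers against 6.31, 6.22 and 5.83 in WT livers (0.25 ± 0.15), with KO B304 inside the WT range.

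The mouse numbers fall into a two-hundreds and a three-hundreds series, each with both genotypes. Fitted with this series as a block, 8 members were higher at an unadjusted p under 0.05, against 2.95% of all genes, and 2 were lower, against 2.07%. *Cyp2c50* differed by 0.61 on the log2 scale within the first series and 0.65 within the second (blocked unadjusted p = 0.0044 by limma), and *Cyp2c54*, which did not reach the threshold without the block, by 0.18 and 0.93 (blocked unadjusted p = 0.034). *Cyp2d9* and *Cyp2d11* (blocked unadjusted p = 0.044 and 0.041 by limma) were higher with the block, and *Cyp2c55* and *Cyp2ab1* (0.039 and 0.044) lower. None of them passed in the main fit, without the block. *Cyp2c55* was also lower under quantile normalization, median centring, the mean of probe sets, trend and robust estimation, the methods' t-test and without KO B304. *Cyp2ab1* was also lower under quantile normalization and without WT B256, and *Cyp2d11* higher without KO B305. *Cyp4f14* differed by 1.0 and 0.40, *Cyp3a13* by 0.59 and 1.14, *Cyp17a1* by 0.79 and 0.55 and *Cyp2c67* by 0.32 and 0.31. *Cyp1a2* differed by -0.15 and -0.41, and its blocked unadjusted p was 0.053. *Cyp2c50* and *Cyp3a13* both had a blocked adjusted p of 0.89.

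Grouped by regulator, 3 of the members passed at an unadjusted p under 0.05. Of 11 CAR- and PXR-responsive members, 8 had positive log2 differences, 2 were higher at an unadjusted p under 0.05 (*Cyp3a13* and *Cyp2c50*) and none was lower, with a median of 0.16. These are 72.7% positive and 18.2% higher, against 51.6% and 1.52% of all genes. The call of *Cyp2c50* was lost in 4 of 6 fits without 1 mouse and in 7 of 10 other settings. Among the 3 negative members, the dim *Cyp2c55* had KO values wholly below WT (unadjusted p = 0.051 by limma), and it passed as lower with the series block. Of the 5 measured PPARα-responsive Cyp4a members, none passed in either direction in the main fit, with a median of 0.06: *Cyp4a10* read 11.53, 11.39 and 11.45 in KO livers against 11.66, 11.42 and 11.45 in WT livers. Without WT B256, *Cyp4a14* passed as higher and *Cyp4a12a* as lower. All 3 AhR-responsive members were negative, and 1 (*Cyp1a2*), with overlapping groups, was lower at an unadjusted p under 0.05. That is 33.3% lower, against 1.51% of all genes. The other AhR-responsive members, *Cyp1a1* and *Cyp1b1*, were below the median gene, with differences near their standard errors or smaller. The median over all genes was 0.00.

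Grouped by sex bias and lobule position, 9 of 14 female-predominant members were measured, with 7 positive, 1 higher (*Cyp17a1*) and a median of 0.09. The shares were 77.8% positive and 11.1% higher, against 51.6% and 1.52% of all genes. The 4 male-predominant members had a median of 0.07, and none passed in the main fit. *Cyp2d9* passed with the series block and *Cyp4a12a* without WT B256. Of 7 measured pericentral members, 1 was higher (*Cyp2c50*) and 1 lower (*Cyp1a2*), with a median of 0.07. That is 14.3% each way, against 1.52% higher and 1.51% lower among all genes. *Cyp2e1* read 12.01, 12.09 and 12.05 in KO livers against 12.27, 12.12 and 11.93 in WT livers, with KO inside the WT range. Of the 2 periportal members, *Cyp2f2*, which oxidizes naphthalene, read 10.28, 10.19 and 9.87 in KO livers against 9.83, 9.19 and 9.98 in WT livers (log2 difference 0.45 ± 0.21, unadjusted p = 0.063 by limma), and *Cyp17a1* is described above. *Cyp2f2* was higher at an unadjusted p under 0.05 with array weights, without WT B302 and without KO B305. Of 9 other pericentral and 5 other periportal genes measured, none passed in either direction, and with the series block *Rgn*, of the pericentral ones, was higher (log2 difference 0.70, unadjusted p = 0.047 by limma).

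Among the members of vitamin, sterol and retinoid metabolism, none passed in the main fit. *Cyp26a1* was lower at an unadjusted p under 0.05 with array weights and without WT B302. Without WT B267, *Cyp2r1* was higher and *Cyp26c1* lower. *Cyp2r1*, a hepatic vitamin D hydroxylase, had a log2 difference of 0.16 ± 0.20 and *Cyp27b1*, which activates vitamin D in kidney, was below the median gene at 4.22. *Cyp46a1*, the cholesterol hydroxylase known from brain, stood at 5.33 with a log2 difference of -0.14 ± 0.14. *Cyp26a1*, which breaks down retinoic acid, read 5.80, 5.68 and 5.74 in KO livers against 7.73, 6.70 and 5.41 in WT livers. The KO livers lay within 0.12 of each other, whereas the WT livers spread over 2.32 log2 units around them (log2 difference -0.87 ± 0.47, unadjusted p = 0.098 by limma). *Cyp26b1* and *Cyp26c1* were below the median gene.

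The spread among mice was wide for this family. Of the 47 members brighter than the median gene, 19 (40.4%) ranged over more than 1 log2 unit (2-fold) across the 6 mice, against 9.49% of all genes brighter than the median gene. The range among WT livers was larger than among KO livers for 33 of the 47 (70.2%), against 61.9% of such genes, and for 16 of the 19. In 8 of the 19, both the highest and the lowest of the 6 values came from WT livers. Among the 19, WT B256 held the highest of the 6 values for 5 genes and the lowest for 5, WT B267 likewise for 5 and 5, and WT B302 the lowest for 7 and the highest for none. KO B253 held the highest for 6. The counts over the 19 were not taken over all genes with so wide a range, so they do not mark this family.

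WT B302 stood somewhat apart as an array. Its array weight was 0.583, against 0.906 to 1.36 for the other mice. Its mean over the 47 members lay 0.18 below the WT mean, and that over all genes brighter than the median gene 0.08 below. Its Kupffer and neutrophil markers lay 0.50 and 0.38 below the WT mean. Other mice also departed from it: neutrophil markers lay 0.42 above in KO B253 and 0.40 above in WT B267. Kupffer markers lay 0.30 above in WT B256. Without WT B302, 14 of the 47 members ranged over more than 1 log2 unit across the remaining 5 mice, against 5.96% of all genes brighter than the median gene. The part of this array in the other values was not tested.

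**Figure D4:**
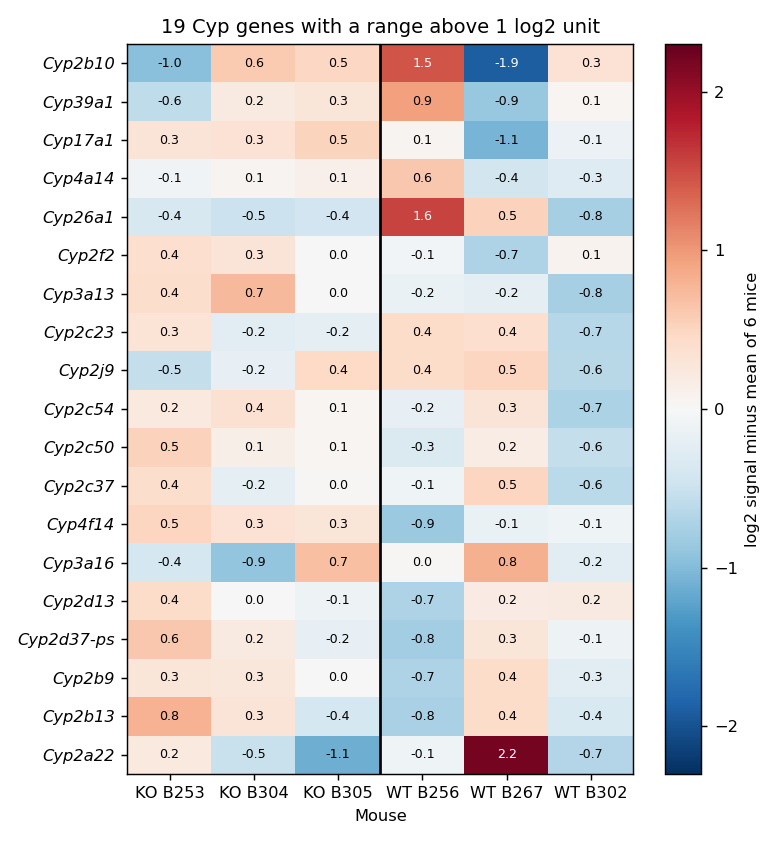
log2 signal minus the mean of the 6 mice (colour and number in each cell) for the 19 Cyp genes with a range above 1 log2 unit (rows, ordered by WT B256 minus WT B267), with KO mice left of the line and WT mice right of it. *Cyp2b10* and *Cyp39a1* are high in WT B256 and low in WT B267, and *Cyp2b9*, *Cyp2b13* and *Cyp2d37-ps* the other way round.

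*Cyp2b10* had the widest range of the 47. It read 9.06, 10.61 and 10.49 in KO livers against 11.47, 8.12 and 10.34 in WT livers. The WT livers B256 and B267 were the highest and the lowest of all 6 and differed 10.2-fold, with KO B253 next to lowest. The group means were 10.05 ± 0.86 in KO livers and 9.97 ± 1.70 in WT livers (SD, n = 3 each), so that the log2 difference of 0.08 carried a 95% interval of -1.64 to 1.80.

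*Cyp2b9* and *Cyp2b13*, whose promoter windows are nearly the same, ran the other way. *Cyp2b9* read 11.44, 11.42 and 11.14 in KO livers against 10.45, 11.58 and 10.90 in WT livers. *Cyp2b13* read 8.83, 8.33 and 7.62 in KO livers against 7.28, 8.45 and 7.68 in WT livers. In both, WT B256 was the lowest of all 6 mice, B267 the highest WT mouse, and B253 the highest and B305 the lowest KO mouse. The log2 differences were 0.35 ± 0.25 and 0.46 ± 0.35, neither at an unadjusted p under 0.05. Relatives this close can share probes, so the signals of this pair may not be independent.

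*Cyp39a1*, an oxysterol hydroxylase, followed the order of *Cyp2b10* among the WT livers. It read 8.94, 9.73 and 9.80 in KO livers against 10.47, 8.65 and 9.58 in WT livers, so that WT B256 was again highest and B267 lowest, with B253 next to lowest. *Cyp4a14* read 11.69, 11.83 and 11.90 in KO livers against 12.39, 11.36 and 11.49 in WT livers, with B256 highest and B267 lowest and the KO livers between them.

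*Cyp2a12* and *Cyp2a22* had different spreads, with windows that matched at 87.3%. *Cyp2a12*, a testosterone-oxidizing enzyme, read 11.16, 10.90 and 10.62 in KO livers against 10.94, 11.09 and 10.76 in WT livers, a narrow band in which the groups overlapped. *Cyp2a22* read 6.61, 5.87 and 5.26 in KO livers against 6.28, 8.59 and 5.71 in WT livers, and spanned 10.03-fold, with WT B267 alone at the top. *Cyp3a16* also varied within the KO group, at 6.27, 5.78 and 7.38 in KO livers against 6.71, 7.5 and 6.44 in WT livers. The pseudogene *Cyp2d37-ps* read 8.42, 8.0 and 7.61 in KO livers against 7.0, 8.08 and 7.68 in WT livers.

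**Figure D5:**
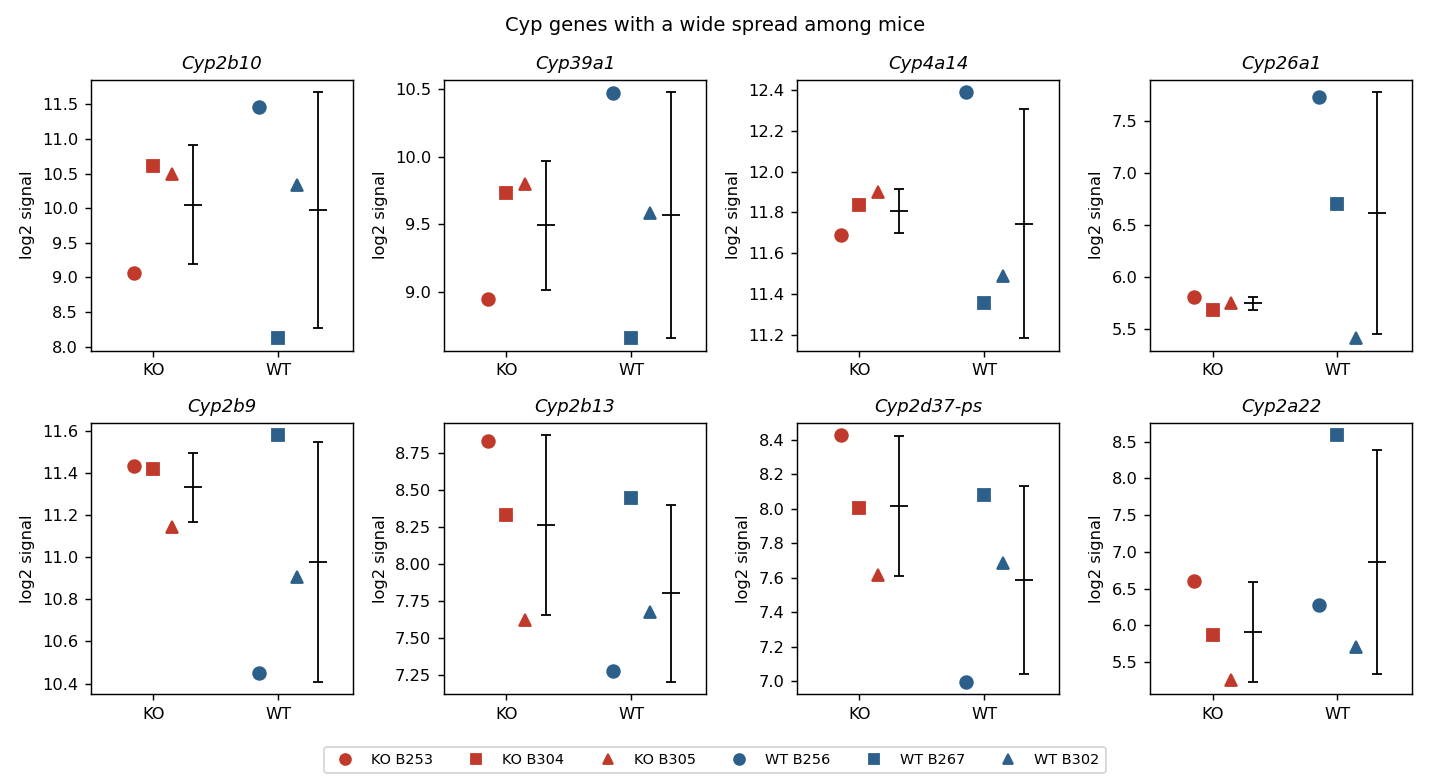
log2 signal (vertical axes, each with its own range) of 8 Cyp genes with a wide spread, for 3 KO and 3 WT livers (horizontal axes), with 1 point per mouse and the mean ± SD beside it; shapes name mice and pair none across groups. WT B256 (circle) is the highest of 6 for *Cyp2b10*, *Cyp39a1*, *Cyp4a14* and *Cyp26a1* and the lowest for *Cyp2b9*, *Cyp2b13* and *Cyp2d37-ps*.

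The rest of the P450 system was read from the same arrays. None of the 7 electron transfer partners measured had an unadjusted p under 0.05, and *Cyb5a*, cytochrome b5, which passes electrons to P450 enzymes, had a log2 difference of 0.02 ± 0.14. Of 7 heme synthesis genes measured, 1 was lower at an unadjusted p under 0.05 (14.3%, against 1.51% of all genes) and none was higher. KO values lay wholly below WT for 1 of them, against 3.70% of all genes. Both counts are of *Alas1*, the rate-limiting enzyme of heme synthesis in liver. It read 8.86, 9.64 and 9.61 in KO livers against 10.29, 10.31 and 10.26 in WT livers, all KO values below all WT values (1.89-fold lower, unadjusted p = 0.0015 by limma, adjusted p = 1.0).

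Of 26 receptors and regulators measured, 3 were higher (11.5%, against 1.52% of all genes) and 1 lower (3.85%, against 1.51%) at an unadjusted p under 0.05. With the series block, *Foxa3* (log2 difference 0.51, unadjusted p = 0.019 by limma) was also higher and *Tef* (-0.34, unadjusted p = 0.045) also lower. *Onecut1*, a hepatocyte transcription factor, read 7.02, 7.44 and 8.43 in KO livers against 9.01, 9.02 and 9.73 in WT livers. *Esr1*, the estrogen receptor, read 7.04, 7.06 and 6.78 in KO livers against 6.04, 5.91 and 6.04 in WT livers (adjusted p = 0.33 by limma). *Nfe2l2*, the regulator of the oxidative stress response, had a log2 difference of 0.72 ± 0.16, and *Bcl6*, a repressor with male-biased expression in liver, of 1.22 ± 0.46. *Bcl6* read 7.58, 8.12 and 6.08 in KO livers against 5.79, 6.52 and 5.82 in WT livers. Its groups overlapped, since KO B305 lay below WT B267. The receptors of the regulator groups gave log2 differences of -0.10 ± 0.15 for *Nr1i3* (CAR), 0.30 ± 0.16 for *Nr1i2* (PXR), 0.13 ± 0.20 for *Ppara* and 0.05 ± 0.23 for *Ahr*, none at an unadjusted p under 0.05. *Hnf4a*, a master regulator of hepatocyte genes, had 0.02 ± 0.19. Whether any of these bears on the Cyp values was not tested.

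The receptors' other targets were counted in the same way. Of 11 other CAR and PXR targets measured, only *Abcb1a*, a drug export pump, passed at an unadjusted p under 0.05, and it was lower (log2 difference -0.59 ± 0.16). That is 9.09% lower, against 1.51% of all genes. Of the 11, 4 had positive log2 differences (36.4%, against 51.6% of all genes) and 7 negative, with a median of -0.07. None of 12 other PPARα targets and none of 4 other AhR targets passed. Of 7 other female-predominant genes, 1 was higher (14.3%, against 1.52% of all genes): *Sult3a1*, a sulfotransferase (log2 difference 0.54 ± 0.14). None of 5 other male-predominant genes passed.

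The markers of the remaining liver cells were counted as well. Median log2 differences were -0.17 for 10 stellate cell, -0.17 for 8 sinusoidal endothelial, -0.18 for 7 Kupffer and -0.19 for 6 T and NK cell markers, 0.00 for 5 cholangiocyte, 0.20 for 5 neutrophil and -0.02 for 3 B cell markers, and *Alas2*, the 1 erythroid marker measured, had -0.27. At an unadjusted p under 0.05, *Lrat* (-0.43) and *Ngfr* (-0.29) of stellate cells and *Nkg7* (-0.54) of NK cells were lower, and *Cd79a* (0.42) of B cells was higher. These are 20% of stellate cell and 16.7% of T and NK cell markers, against 1.51% of all genes, and 33.3% of B cell markers, against 1.52%. KO values lay wholly below WT for 3 stellate cell, 3 T and NK cell and 1 cholangiocyte marker, against 3.70% of all genes, and wholly above for 1 B cell marker, against 3.46%. Only 1 of the 6 T and NK cell markers was above the median gene. With the series block, *Ngfr* (unadjusted p = 0.059 by limma) and *Nkg7* (unadjusted p = 0.085) no longer passed, while *Lyve1* of sinusoidal endothelium (-0.58, unadjusted p = 0.0043) was lower and *S100a9* of neutrophils (0.72, unadjusted p = 0.040) higher. The summed linear signal of the hepatocyte list was 51970 to 58515 in KO livers and 50709 to 61302 in WT livers. Its part in the Cyp values was not tested.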

How the data were processed

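Liver RNA of 3 KO and 3 WT mice was measured on Affymetrix mouse gene arrays, 1 array per mouse. The deposited values are log2 signals that the authors made with RMA (background correction, normalization between arrays, summary into probe sets). The labels name RMA and Partek, with no version of either stated in the sources used here. Values were used as deposited. Detection calls are not in the files, and precision is limited by the number of arrays.

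Of 35556 probe sets, 21789 had 1 gene symbol in an annotation of an earlier array generation than the one the methods name. Symbols were updated by gene identifier and the probe set with the highest mean kept, which gave 19938 genes. Another 7 probe sets shared by a Cyp gene and other genes were not used.

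KO was compared with WT by limma 3.58.1 (lmFit and eBayes, two-sided) in R 4.3.3. The p-values were adjusted by Benjamini-Hochberg over all genes, with a threshold of 0.05, and the procedure was tested on simulated data. Figures used matplotlib 3.10.9. The genes named are those at an unadjusted p under 0.05, the 8 largest differences each way among members brighter than the median gene, the brightest of each subfamily, 25 fixed members, regulators and the 5 widest ranges per group. *Cyp2a4*, *Cyp2a5*, *Cyp3a41a*, *Cyp24a1* and *Por* belong to these lists and were not analysed here. Further genes (*Cyp2c37*, *Cyp2c55*, *Cyp4f13*, *Rgn*, *Alas2* and others) were added after their values were seen. The members and lists were chosen with earlier results of these data known. Alternatives were quantile normalization, median centring, leaving out dim genes, the mean of probe sets, weighted arrays, the methods' t-test, estimation with an intensity trend and robust variances, a block for the mouse number series and leaving out each mouse. Leaving out B253 and B256, or blocking on them, and leaving out each mouse from the count of wide ranges were added after the data were seen.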

Additional observations from a re-analysis of the deposited data

How the results depend on the processing

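No member passed an adjusted p of 0.05 under any alternative, each by limma or by the methods' t-test. The count of members higher at an unadjusted p under 0.05, 5 as reported, was 8 with a block for the mouse number series, against 2.95% of all genes. It was 3 with trend and robust estimation, against 1.49%, and 2 with the methods' t-test, against 1.39%. It ran from 4 to 11 when 1 mouse was left out, with 11 without WT B267, against 2.02%. The count lower, 1 as reported, was 2 with array weights (all genes 1.88%), median centring (1.58%), the mean of probe sets (1.49%) and the series block (2.07%). It was 3 with quantile normalization (1.94%) and 3 without B253 and B256 (1.73%). When 1 mouse was left out it ran from 1 to 5, with 5 without WT B302 (2.23%) and 2 without WT B256 (1.73%). The 5 without WT B302 were *Cyp1a2*, *Cyp2a22*, *Cyp2c23*, *Cyp20a1* and *Cyp26a1*. *Cyp26a1* was also lower with array weights, *Cyp3a16* without KO B305 and *Cyp26c1* without WT B267. With trend and robust estimation and with the methods' t-test, the 1 lower member was *Cyp2c55* and not *Cyp1a2*. The median log2 fold change of the members, -0.01, was 0.041 when dim genes were left out, which leaves 47 members, and between -0.01 and 0.03 without 1 mouse. The count of members ranging over more than 1 log2 unit, 19 of 47 over 6 mice, ran from 14 to 19 over 5. The share of all genes brighter than the median gene was 9.49% over 6 mice and ran from 5.96% to 8.7% over 5. The cause of these shifts was not tested. All 6 genes at an unadjusted p under 0.05 kept their direction throughout. *Cyp4f14* stayed under 0.05 in every setting, *Cyp3a13* in all but the methods' t-test, *Cyp17a1* in all but that test and without KO B305, while *Cyp2c50* lost it in 11 of 16 settings, *Cyp1a2* in 7 and *Cyp2c67* in 5. The log2 fold change of *Cyp2b10* ran from -0.85 to 0.82 without 1 mouse and that of *Cyp26a1* from -1.47 to -0.31. No paired analysis was possible because the labels give no replicate numbers. Probe sets of close relatives may share probes, and dim signals near those of Y-linked genes give no bound on expression.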

Other observations

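Among genes outside the family, *Sult1d1*, a sulfotransferase on the list of other CAR and PXR targets, had nearly the mouse order of *Cyp2b10*. It read 10.40, 11.43 and 11.46 in KO livers against 11.63, 10.70 and 11.23 in WT livers, with WT B256 highest and KO B253 and WT B267 lowest. *Fmo2*, a flavin monooxygenase more expressed in female liver, read 6.34, 7.27 and 7.72 in KO livers against 9.06, 7.49 and 7.04 in WT livers, also with WT B256 highest and KO B253 lowest. Both were picked after their values were seen. Of the 11 targets measured on that list, 3 had WT B256 highest and KO B253 lowest: *Sult1d1*, *Slco1a4*, a bile acid and organic anion transporter, and *Ces2a*, a carboxylesterase. *Slco1a4* read 9.3, 9.92 and 9.93 in KO livers against 10.01, 9.9 and 9.46 in WT livers, and *Ces2a* 7.55, 7.89 and 8.09 in KO livers against 8.2, 8.15 and 7.87 in WT livers. The other 8 had another highest or lowest mouse.

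Among dim members, *Cyp4a12a*, a male-predominant gene, read 3.96, 4.10 and 4.18 in KO livers against 3.86, 4.45 and 4.71 in WT livers, with the groups overlapping.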
